A study of Homo sapiens with 12 samples.

Results

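Namalwa, a Burkitt lymphoma line, was compared with SU-DHL4 and SU-DHL6, both germinal-centre type diffuse large B-cell lymphoma lines. The 6 arrays concerned were chosen by their titles out of 12 arrays in the series: 2 arrays of Namalwa, 2 of SU-DHL4 and 2 of SU-DHL6. Each array was an Affymetrix human expression chip, hybridised with labelled RNA made from 5 µg of total RNA, and its unit of measurement is the probe set, several short oligonucleotides that together read a transcript. All cells were untreated and were grown in the same RPMI medium with fetal bovine serum. The other 6 arrays carried the Hodgkin lymphoma lines KM-H2, L1236 and L428, which served to estimate the spread between duplicates and to show levels outside the comparison. The difference reported throughout is the Namalwa mean minus the average of the SU-DHL4 and SU-DHL6 means, on the log2 scale, so a positive value means higher in Namalwa.

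Burkitt lymphoma is a tumour of germinal-centre B cells defined by a translocation that places MYC, a growth-promoting transcription factor, under immunoglobulin gene control. Germinal-centre type diffuse large B-cell lymphoma comes from the same stage of B-cell development but carries other lesions, among them BCL2 translocations. Namalwa cells carry the Epstein-Barr virus, which the SU-DHL lines do not, and have long been used to produce interferon after virus induction. These facts are background and were not measured here.

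The Namalwa arrays, like the Hodgkin arrays, came from a dataset the submitters had published earlier, and the SU-DHL arrays were newly generated. Dataset and line can therefore not be told apart in any difference below, and Hodgkin levels are given beside a difference where they bear on this. Namalwa was the 1 Burkitt line, and nothing says whether duplicate arrays came from separate cultures, so p-values here rest on the scatter of duplicates alone, and that scatter may be technical. In such bulk RNA, fewer cells with a transcript and less of it per cell cannot be told apart. No detection calls were used, and differences that reach down to the lower quartile of the arrays (5.64 to 5.75) understate the fold. Duplicates correlated at 0.981 to 0.995, and 465 probe sets lay more than 2-fold apart between the SU-DHL6 duplicates, against 17 to 122 in the other lines. SU-DHL6 replicate 2 also had a GAPDH 3′ minus 5′ difference of 0.47 on the log2 scale, against −0.09 to 0.16 on the other arrays, a sign of RNA quality whose part in the results was not tested.

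Of 22215 probe sets tested, 427 (1.92%) were called higher in Namalwa and 350 (1.58%) lower, a call being an adjusted p under 0.05 in limma with at least a 2-fold difference. By gene, with each gene read by its brightest probe set on average, 240 of 11963 genes (2.01%) were called higher and 216 (1.81%) lower. Without SU-DHL6 replicate 2 the gene counts were 281 higher and 217 lower. Against SU-DHL4 alone 946 probe sets (4.26%) were called in either direction, and against SU-DHL6 alone 1159 (5.22%). Between SU-DHL4 and SU-DHL6, which share lymphoma type and dataset, 1126 probe sets (5.07%) were called, a count close to that of Namalwa against either line. Line means correlated at 0.967 between Namalwa and SU-DHL4, 0.964 between Namalwa and SU-DHL6 and 0.966 between the SU-DHL lines.

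Agreement against both lines narrowed the set. Among the called genes, 139 were called higher and 108 lower against each SU-DHL line separately. Over all 11963 genes, called against the mean or not, 13 were called higher against 1 SU-DHL line and lower against the other. With no regard to calls, both Namalwa arrays lay above all 4 SU-DHL arrays for 1485 genes (12.4%) and below all 4 for 1464 genes (12.2%). Of the genes called higher, 223 had no overlap, and in 108 of these Namalwa also lay above all 6 Hodgkin arrays, whereas in 63 the Hodgkin arrays too lay above all SU-DHL arrays. Of the 192 genes called lower without overlap, Namalwa lay below the Hodgkin arrays as well in 63, and in 90 the Hodgkin arrays too lay below all SU-DHL arrays. Over all genes, the 8 arrays of the published dataset lay above the 4 new arrays for 250 genes (2.09%) and below them for 389 (3.25%). When the line was taken as the replicate, with the lone Namalwa line assumed to vary like the others, limma called 7 probe sets (0.0315%), all higher in Namalwa, and 994 had an unadjusted p under 0.05. The 6 of them with a single gene name read PLAC8, BMS1P20, KLRC3, CCL4, VPREB1 and IGHM. For IGHM it was a dimmer probe set, which differed by 2.82. The brightest probe set of IGHM was not called over line means and differed by −0.37 from SU-DHL6.

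**Figure D1:**
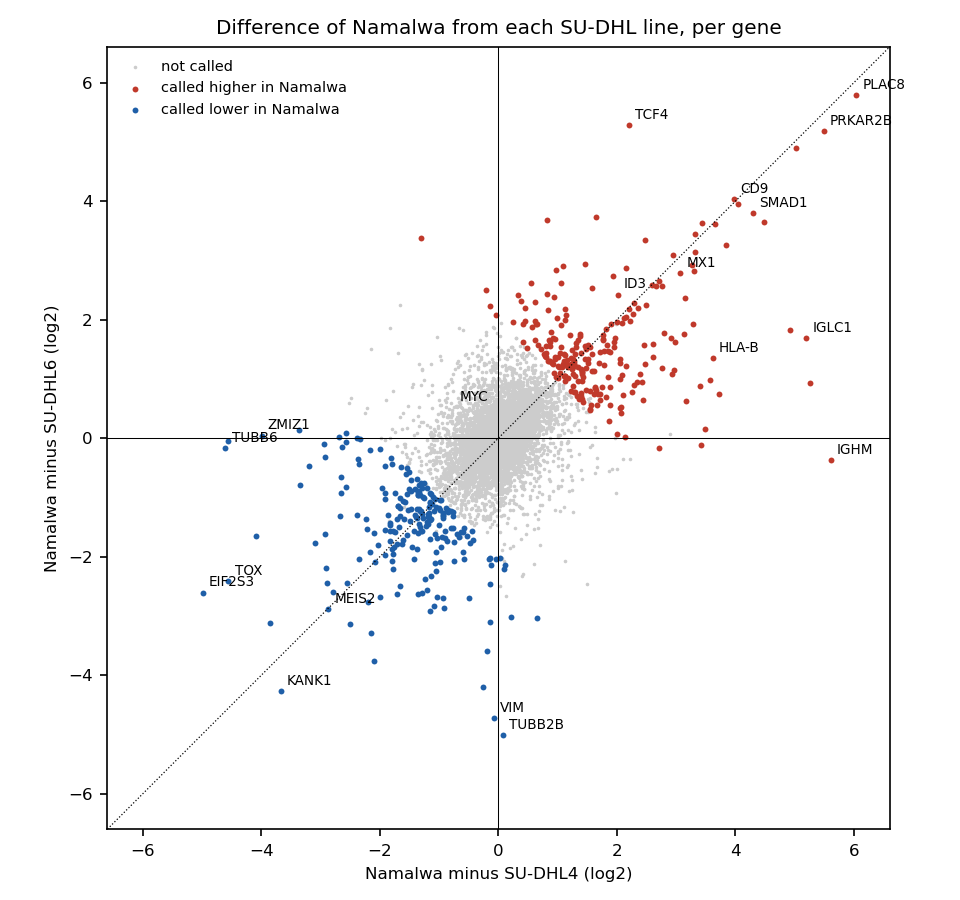
Difference of Namalwa from SU-DHL4 (horizontal axis) and from SU-DHL6 (vertical axis), log2, 1 point per gene for 11963 genes; red points were called higher and blue points lower against the mean of both lines, and the dotted line marks equal differences. PLAC8 and PRKAR2B lie far out along the dotted line at the upper right, KANK1 at the lower left, and IGHM, TUBB2B, VIM, TUBB6 and ZMIZ1 lie along an axis, where a single SU-DHL line sets the difference.

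PLAC8, PRKAR2B and SMAD1 had been picked as marks of the Namalwa side from earlier results of these data, so their values are a description. PLAC8, a small cysteine-rich protein of lymphoid and myeloid cells, stood at 12.25 and 12.20 on the Namalwa arrays, against 6.13 and 6.25 in SU-DHL4 and 6.37 and 6.51 in SU-DHL6. The difference was 5.91 ± 0.08 (SE), or 60.3-fold (adjusted p = 3.18e-10), and the Hodgkin arrays lay at 6.18 to 6.43, level with SU-DHL. PRKAR2B, a regulatory subunit that holds protein kinase A inactive until cAMP binds, stood at 11.02 and 10.64 in Namalwa, against 5.13 and 5.55 in SU-DHL4 and 5.45 and 5.85 in SU-DHL6. Its difference was 5.34 ± 0.20 (40.4-fold, adjusted p = 3.59e-07), with Hodgkin arrays at 5.06 to 7.72. SMAD1, which carries bone morphogenetic protein signals to the nucleus, stood at 9.72 and 9.92 in Namalwa, against 5.60 and 5.45 in SU-DHL4 and 6.13 and 5.92 in SU-DHL6. Its difference was 4.04 ± 0.10 (16.5-fold, adjusted p = 5.11e-08). No Namalwa array overlapped an SU-DHL array for these 3 genes. SMAD1 differs from the other 2 in that all 6 Hodgkin arrays, at 6.58 to 9.23, also lay above every SU-DHL array.

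The 15 called genes highest in Namalwa against both SU-DHL lines were 8.07- to 60.3-fold higher, and Namalwa also lay above all Hodgkin arrays for 14 of them. CD9, a tetraspanin of the cell surface, stood at 9.71 and 9.53 in Namalwa, against 5.64 and 5.66 in SU-DHL4 and 5.57 and 5.60 in SU-DHL6 (difference 4.01 ± 0.26, adjusted p = 7.84e-06). CCL4, a chemokine that B cells release after antigen receptor stimulation, stood at 10.11 and 10.25 in Namalwa, against 6.87 and 6.87 in SU-DHL4 and 6.53 and 6.94 in SU-DHL6. Its difference of 3.37 ± 0.11 was 10.4-fold, with Hodgkin arrays at 6.51 to 6.82, and a near-identical copy of the gene could share its probes. The SU-DHL and Hodgkin arrays thus shared 1 level for both PLAC8 and CCL4, and Namalwa alone stood above it. YBX3, a cold-shock domain protein that binds DNA and RNA, was 16.0-fold higher by its brightest probe set and had Hodgkin arrays from 6.52 up to 10.19, close under the 10.46 and 10.58 of Namalwa. Another of its 3 probe sets differed by 5.98 and the dimmest did not pass (−0.13).

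MID1IP1, a regulator of fatty acid synthesis, differed by 3.55 ± 0.19 (adjusted p = 2.49e-06), MAN1A1, a mannosidase that trims N-glycans in the Golgi, by 3.23 ± 0.16 (adjusted p = 1.81e-06), and NLRP2, an inflammasome family protein, by 3.10 ± 0.12 (adjusted p = 5.25e-07). AFF1, a subunit of the super elongation complex known from MLL fusions, differed by 3.53 ± 0.21 (adjusted p = 4.71e-06), but the Hodgkin arrays, at 7.34 to 8.21, also lay well above SU-DHL. NMI, an interferon-inducible partner of MYC and STAT proteins, was the exception among the 15: it stood at 8.48 and 8.31 in Namalwa, against 4.71 to 6.46 on the SU-DHL arrays, and the Hodgkin arrays were higher still, at 9.31 to 10.53. Its SU-DHL6 duplicates differed, at 4.71 and 6.46.

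Other genes of the 15 belong to families whose members probes can share. VPREB1, part of the surrogate light chain of precursor B cells, stood at 8.44 and 8.56 in Namalwa and at 5.34 to 5.78 on the SU-DHL arrays. It neighbours BMS1P20, a pseudogene inside the immunoglobulin lambda locus on chromosome 22, which differed by 4.96 ± 0.16, so reads of that probe set cannot be told from rearranged lambda transcripts. KLRC3, of the NKG2 receptor family of natural killer cells, differed by 3.63 ± 0.14, and TRBC1, a T-cell receptor beta constant region, by 4.07 ± 0.20, with 3 probe sets that differed by 4.07, 2.33 and 1.0. The list of T and NK cell markers did not move with them. None of its 25 measured members was called higher and LCK was called lower (−1.43, adjusted p = 0.00197), beside 2.01% and 1.81% of all genes. The summed level was 162 to 163 in Namalwa, against 164 to 167 in SU-DHL. CD3D, CD3E, CD2 and NKG7 differed by between −0.02 and 0.04.

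**Figure D2:**
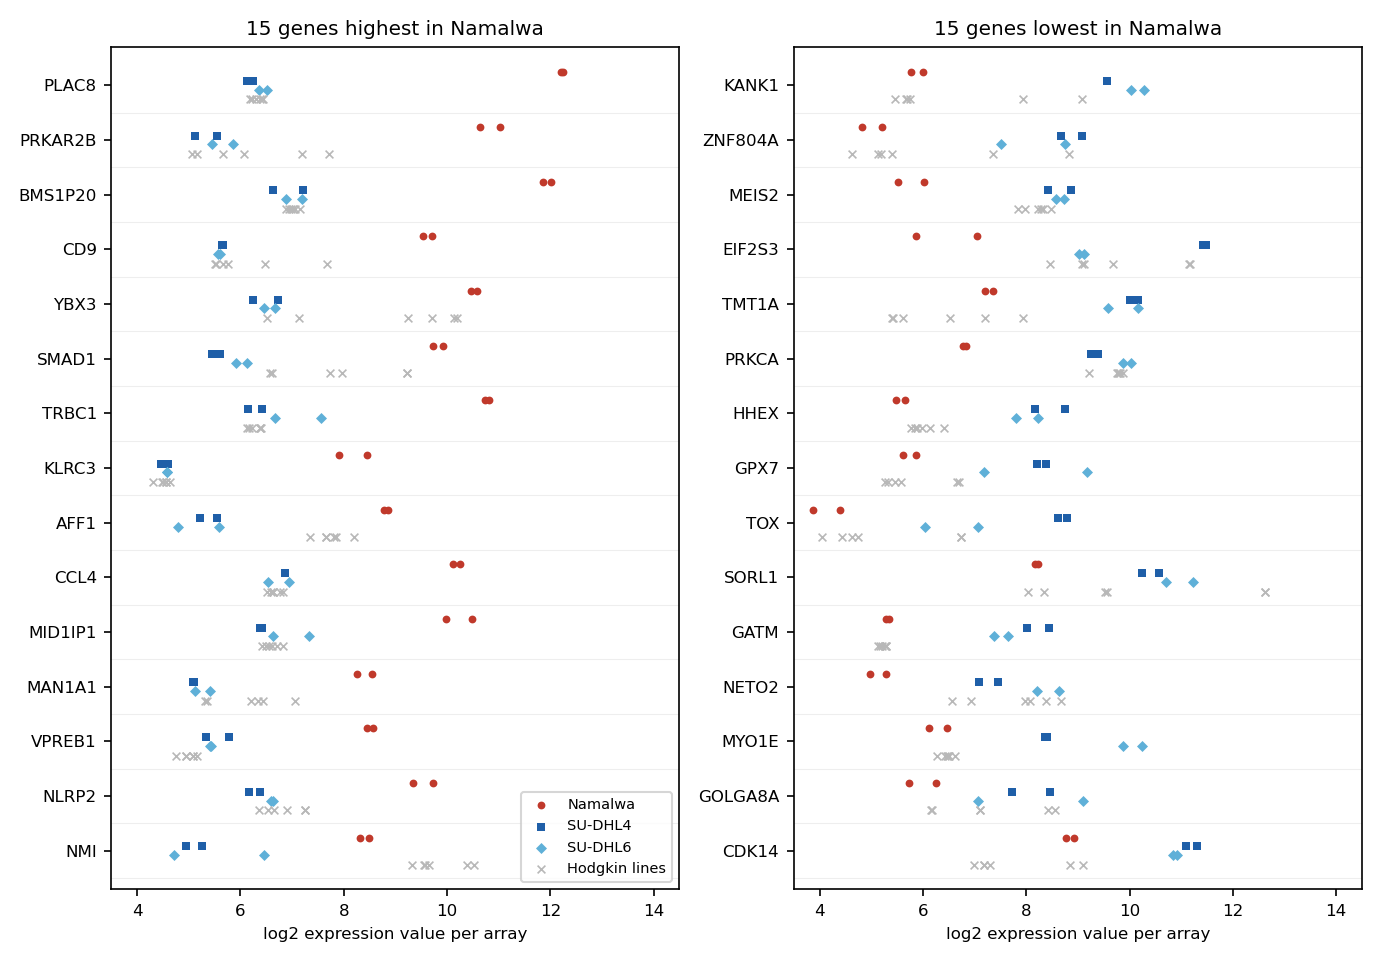
Log2 expression value on each array (horizontal axis) for the 15 called genes highest (left) and the 15 lowest (right) in Namalwa against both SU-DHL lines; each point is an array, in red for Namalwa, dark and light blue for SU-DHL4 and SU-DHL6, and grey crosses for the 6 Hodgkin arrays. Namalwa lies apart from every SU-DHL array for each gene by the rule that chose them, while the grey crosses lie with SU-DHL for PLAC8 and CCL4 and with Namalwa for HHEX, GATM and MYO1E.

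The 15 called genes lowest in Namalwa were 4.25- to 15.7-fold lower, and for 5 of them Namalwa also lay below all Hodgkin arrays. KANK1, an adaptor between integrin adhesions and the cell cortex, stood at 5.77 and 6.01 in Namalwa, against 9.56 and 9.57 in SU-DHL4 and 10.03 and 10.28 in SU-DHL6 (difference −3.97 ± 0.25, adjusted p = 7.41e-06). MEIS2, a homeobox factor, stood at 6.02 and 5.51 in Namalwa and at 8.42 to 8.86 on the SU-DHL arrays (−2.88 ± 0.16, adjusted p = 3.09e-06), with Hodgkin arrays at 7.85 to 8.48. PRKCA, the alpha isoform of protein kinase C, differed by −2.83 ± 0.14 (adjusted p = 1.36e-06) and was likewise lowest in Namalwa among all 12 arrays. Its 4 probe sets differed by −2.83, −1.06, −0.61 and 0.07. HHEX, a homeobox factor of germinal-centre and memory B cells, differed by −2.67 ± 0.17 (adjusted p = 8.95e-06), GATM, the first enzyme of creatine synthesis, by −2.55 ± 0.12 (adjusted p = 1.20e-06), and MYO1E, a class I myosin, by −2.93 ± 0.13 (adjusted p = 8.67e-07). For these last 3 genes all Hodgkin arrays also lay below every SU-DHL array, as they did for KANK1 and CDK14. For KANK1, however, KM-H2 stood at 7.93 and 9.09, nearer to SU-DHL4 than to Namalwa. Dataset and line cannot be told apart for these genes, nor for the others.

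TOX, a nuclear factor best known from T cells, stood at 3.88 and 4.40 in Namalwa, against 8.61 and 8.79 in SU-DHL4 and 6.04 and 7.06 in SU-DHL6 (−3.49 ± 0.25, adjusted p = 1.76e-05). SORL1, a sorting receptor, differed by −2.48 ± 0.15 (adjusted p = 6.24e-06), and CDK14, a cyclin-dependent kinase, by −2.20 ± 0.11 (adjusted p = 1.42e-06). EIF2S3, the gamma subunit of the translation initiation factor that delivers the first tRNA, stood at 7.05 and 5.87 in Namalwa and at 9.03 to 11.48 on the SU-DHL arrays. It was read by a single probe set, has a near-identical retrogene copy that probes could share, and is reported as uncertain. GOLGA8A, a golgin of a duplicated family, is uncertain for the same reason, and its difference of −2.09 no longer passed without Namalwa replicate 2 (−1.83, adjusted p = 0.103).

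The labels call all 3 lines B-cell lymphoma cells, and B-cell markers were high in each of them. Of 23 measured genes of B-cell identity, 20 lay above the array median in Namalwa and 18 on all SU-DHL arrays. PAX5, which maintains B-cell identity, averaged 10.4 in Namalwa, against 9.8 in SU-DHL4 and 9.9 in SU-DHL6, and CD79A, a signalling chain of the B-cell receptor, averaged 11.7, against 11.9 and 12.4. CR2, CD24 and BANK1 were called higher and MS4A1 lower, beside 2.01% and 1.81% of all genes. Only CR2 was called higher against both SU-DHL lines separately. CR2, the complement receptor that Epstein-Barr virus uses to enter B cells, stood at 7.73 and 7.87 in Namalwa and at 5.27 to 5.80 on the SU-DHL arrays, a 5.16-fold difference (adjusted p = 6.26e-06), while KM-H2 was higher than Namalwa, at 10.63 and 10.99. MS4A1, which encodes CD20, stood at 11.23 and 10.83 in Namalwa, against 11.56 to 12.78 on the SU-DHL arrays (−1.42 ± 0.29, adjusted p = 0.00896), and this call was lost without Namalwa replicate 2 (−1.22, adjusted p = 0.0945). CD24 followed a single line: it stood at 11.77 and 11.71 in Namalwa, at 7.93 and 8.57 in SU-DHL4 and at 11.30 and 11.87 in SU-DHL6. BANK1 lost its call without Namalwa replicate 1 (0.70) and had the opposite sign against SU-DHL4 alone (−0.21).

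Germinal-centre genes were present on both sides. BCL6, the repressor that defines the germinal-centre programme, stood at 10.69 and 10.58 in Namalwa, against 11.24 and 11.66 in SU-DHL4 and 10.82 and 11.03 in SU-DHL6, and did not pass (−0.55 ± 0.18, adjusted p = 0.0735). MME, which encodes CD10, differed by 0.66 (adjusted p = 0.0902), by 0.15 from SU-DHL4 and by 1.18 from SU-DHL6, where it was called. Its other probe set passed both thresholds (1.14, adjusted p = 0.00755), with a difference of 0.02 from SU-DHL4 and 2.26 from SU-DHL6. CD38 differed by 0.03. Of 20 measured members of the list, 3 were called higher and 3 lower, beside 2.01% and 1.81% of all genes. The median difference was −0.11. BACH2, a repressor that holds B cells back from plasma cell fate, stood at 10.59 and 10.38 in Namalwa, against 8.32 and 8.34 in SU-DHL4 and 6.93 and 8.31 in SU-DHL6 (2.51 ± 0.29, adjusted p = 0.000362), above all Hodgkin arrays as well. RGS13, a brake on chemokine receptor signalling in germinal-centre B cells, was lower (−1.75 ± 0.21, adjusted p = 0.000366), and so were STAP1, an adaptor downstream of B-cell receptor kinases (−1.42), and LMO2 (−1.59), a transcription cofactor. For RGS13, STAP1 and LMO2 the Hodgkin arrays too lay below all SU-DHL arrays. IRF4, a factor of plasma cell and activated B-cell fate, differed by 1.87 from SU-DHL4 and −0.56 from SU-DHL6. LMO2 differed by −2.70 from SU-DHL6 and by −0.49, without a call, from SU-DHL4, and MEF2C, the third member called higher, was 1.31 lower than in SU-DHL4 and 3.38 higher than in SU-DHL6. Without Namalwa replicate 1, 5 members of the list were called lower.

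MYC itself was not called: it stood at 10.62 and 10.84 in Namalwa, against 11.42 and 11.56 in SU-DHL4 and 10.71 and 9.72 in SU-DHL6 (−0.12 ± 0.23, adjusted p = 0.862). None of 23 measured MYC targets of the nucleolus and ribosome biogenesis was called, beside 2.01% of all genes called higher and 1.81% lower. Their median difference was 0.02. Among 34 MYC targets in metabolism and other functions 1 was called higher and 1 lower, beside 2.01% and 1.81% of all genes. PHGDH, the first enzyme of serine synthesis, stood at 9.55 and 10.07 in Namalwa, at 6.35 and 6.46 in SU-DHL4 and at 9.68 and 10.19 in SU-DHL6, so SU-DHL4 alone stood apart. IMPDH2, of guanine nucleotide synthesis, was 2.07-fold lower and fell under the 2-fold minimum without Namalwa replicate 1 (−0.92). None of the 12 measured MAX network genes and none of 40 ribosomal protein genes was called, beside the same shares of all genes. At those shares lists of such sizes can be without a call, so these counts do not set them apart from all genes.

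Of 21 measured genes known as high in Burkitt lymphoma, 4 were called higher and 0 lower, beside 2.01% and 1.81% of all genes. The median difference was 0.07, beside −0.01 over all genes. ID3 and TCL1A led the 4. TCL1A, a coactivator of AKT, stood at 12.74 and 12.72 in Namalwa, against 10.46 to 11.75 on the SU-DHL arrays (1.66 ± 0.17, adjusted p = 0.000138). MYB, a transcription factor of dividing lymphoid precursors, differed by 1.49 ± 0.16 (adjusted p = 0.000223), and CCND3, a G1 cyclin often mutated in Burkitt lymphoma, by 1.28 ± 0.14 (adjusted p = 0.000234), of which 2.05 was against SU-DHL4 and 0.51, without a call, against SU-DHL6. For MYB the Hodgkin arrays, at 9.05 to 10.37, also lay above every SU-DHL array, and L1236 was higher than Namalwa. Of 25 measured genes known as low in Burkitt lymphoma, 7 were called higher in Namalwa and 2 lower, beside 2.01% and 1.81% of all genes. Most of these calls thus did not go in the direction the list's name gives. The median was 0.39, at 0.44 against SU-DHL4 but 0.12 against SU-DHL6, and 4 members were called higher against both lines. Levels of HLA-B and HLA-C are uncertain, as given below. The members called higher were HLA-B, HLA-C, S100A11, CD69, BCL2A1, CFLAR and CD58, and those called lower were CD86, a costimulatory ligand, and CTSH, a lysosomal protease. CD69, an early activation antigen, stood at 6.38 and 6.19 in Namalwa and at 4.30 to 4.61 on the SU-DHL arrays (1.83 ± 0.11, adjusted p = 6.47e-06), with Hodgkin arrays at 4.29 to 4.48. BCL2A1, a BCL2 relative that NF-kB induces, stood at 7.14 and 6.71 in Namalwa, against 5.22 to 5.69 on the SU-DHL arrays (1.42 ± 0.20, adjusted p = 0.00123). CD44 and BCL2 did not pass (−0.03 and −0.24), although a dimmer probe set of BCL2 passed both thresholds in the other direction (1.48, adjusted p = 0.00142) and the 4 probe sets of BCL2 disagreed in sign. SMARCA4, an ATPase of chromatin remodelling, differed by −0.43 (adjusted p = 0.0233), under the 2-fold minimum. Nor were CDKN2A (0.26), S1PR2 (−0.17) and GNA13 (0.44) called, the first a cell cycle inhibitor and the others parts of a pathway that confines germinal-centre B cells.

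E proteins are transcription factors that drive B-cell development, and ID proteins bind and inhibit them. TCF4, an E protein, stood at 10.65 and 10.66 in Namalwa, against 8.33 and 8.56 in SU-DHL4 and 5.36 and 5.38 in SU-DHL6. Its difference was 3.74 ± 0.13 (13.4-fold, adjusted p = 2.02e-07), and all 7 of its probe sets were called higher with differences of 2.39 to 3.74. By this brightest probe set the Hodgkin arrays, at 8.61 to 10.33, lay between. By several of the others KM-H2 averaged below SU-DHL4, at 5.94 against 7.04 where they were furthest apart. ID3, the inhibitor often mutated in Burkitt lymphoma, stood at 10.76 and 11.02 in Namalwa, against 8.94 and 8.82 in SU-DHL4 and 8.13 and 8.81 in SU-DHL6 (2.21 ± 0.23, adjusted p = 0.000182), above Hodgkin arrays at 5.84 to 6.48. The other 5 genes of this group of 7 did not pass, namely TCF3 (0.31), TCF12 (0.58), ID1 (0.31), ID2 (0.75) and ID4 (−0.01).

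In B-cell receptor signalling, 4 of 26 measured genes were called higher and 2 lower, beside 2.01% and 1.81% of all genes. The median difference was −0.12. PRKCB, the protein kinase C isoform that links the receptor to NF-kB, stood at 9.83 and 9.69 in Namalwa, against 6.81 and 6.75 in SU-DHL4 and 7.81 and 8.46 in SU-DHL6 (2.30 ± 0.20, adjusted p = 5.73e-05). It thus went the opposite way to PRKCA, described above. FYN, a SRC-family kinase (1.48 ± 0.25, adjusted p = 0.00330), FCGR2B, the inhibitory IgG receptor with near-identical relatives (1.51 ± 0.16, adjusted p = 0.000175), and PIK3CD, the delta catalytic subunit of PI3-kinase (1.22 ± 0.15, adjusted p = 0.000418), were higher as well, and for these 4 genes Namalwa lay above all 10 other arrays. For PIK3CD, however, the Hodgkin arrays, at 9.64 to 9.78, also lay above all SU-DHL arrays, at 8.36 to 9.21. FCGR2B differed by 0.99, without a call, from SU-DHL4. SH2B2, an adaptor of receptor kinases (−1.63 ± 0.28, adjusted p = 0.00337), and VAV1, an exchange factor for RAC (−1.16 ± 0.09, adjusted p = 2.60e-05), were lower, and the Hodgkin arrays too lay below all SU-DHL arrays for both. In the PI3-kinase, AKT and FOXO1 list 2 of 23 were called higher and 2 lower, beside 2.01% and 1.81% of all genes. IRS2, an adaptor of insulin signals (1.16), was higher with PIK3CD, while SGK1, an AKT-related kinase (−1.86 ± 0.17, adjusted p = 8.38e-05), and DDIT4, an inhibitor of mTOR (−1.66 ± 0.38, adjusted p = 0.0155), were lower. DDIT4 lost its call without either Namalwa array (adjusted p = 0.0913 without replicate 1 and 0.103 without replicate 2).

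Of 10 measured immunoglobulin genes, the products by which B-cell clones differ, 3 were called higher and 1 lower, beside 2.01% and 1.81% of all genes. Probes of this multigene locus can read several rearranged transcripts. IGLC1, a lambda constant region, stood at 14.19 and 13.999 in Namalwa, against 8.90 and 8.90 in SU-DHL4 and 12.20 and 12.63 in SU-DHL6 (3.44 ± 0.32, adjusted p = 8.62e-05). IGKC, the kappa constant region, stood at 8.38 and 8.16 in Namalwa and at 9.84 to 10.52 on the SU-DHL arrays (−2.00 ± 0.14, adjusted p = 1.34e-05), so lambda was higher and kappa lower in Namalwa, although only 4 of the 8 IGKC probe sets had that sign. IGHM, the mu heavy chain, stood at 12.50 and 12.71 in Namalwa, at 7.15 and 6.85 in SU-DHL4 and at 12.98 and 12.97 in SU-DHL6. Its difference of 2.62 was thus 5.61 against SU-DHL4 and −0.37 against SU-DHL6. A further 2 IGHM probe sets behaved otherwise and differed from both lines, by 2.82 and 3.25, with SU-DHL6 level with SU-DHL4. XBP1, the transcription factor of immunoglobulin secretion, stood at 9.44 and 9.58 in Namalwa, against 6.54 and 6.23 in SU-DHL4 and 8.09 and 7.43 in SU-DHL6 (2.44 ± 0.18, adjusted p = 1.87e-05). No other plasma cell gene of the 16 measured was called higher: TNFRSF17, the receptor BCMA, was called lower (−1.59 ± 0.15, adjusted p = 8.56e-05), and PRDM1 (−0.07), SDC1 (0.05) and JCHAIN (0.23) did not pass.

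Host genes known to respond to Epstein-Barr virus in B cells, in whichever direction, were among the lists with the largest share of calls. Of 28 measured, 8 were called higher, beside 2.01% of all genes, and 0 lower, with a median difference of 0.33. In 12 of the 28 both Namalwa arrays lay above all SU-DHL arrays, beside 12.4% of all genes. CCR7, the homing receptor for lymph nodes, stood at 7.22 and 7.12 in Namalwa and at 5.06 to 5.88 on the SU-DHL arrays (1.71 ± 0.17, adjusted p = 0.000151). CD70, the ligand of CD27, stood at 10.0 and 9.89 in Namalwa, against 7.74 to 8.94 on the SU-DHL arrays (1.68 ± 0.12, adjusted p = 1.28e-05). CR2, GPR183, CXCR4, CCL22, TNFAIP3 and CD58 made up the rest of the 8, with differences of 1.02 to 2.37. Their count was 5 without Namalwa replicate 1 and 10 without SU-DHL6 replicate 2. For 4 of the 8 the Hodgkin arrays too lay above all SU-DHL arrays, and the level in Namalwa was well under theirs for CCR7, at 9.25 to 11.93. Namalwa lay above all other arrays for CCL22, a chemokine for regulatory T cells, and CXCR4, a homing receptor. FCER2, CD40, ICAM1 and TRAF1, other host genes known to respond to the virus, did not reach the 2-fold minimum, at 0.46, 0.25, 0.28 and 0.26.

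The NF-kB list overlapped that one. Of 32 measured subunits and targets, 6 were called higher, beside 2.01% of all genes, and 0 lower, with a median of 0.13, namely CCL4, CCR7, BCL2A1, CFLAR, CCL22 and TNFAIP3, an inhibitor of NF-kB that is itself a target. The median was 0.37 against SU-DHL4 and −0.04 against SU-DHL6. For 3 of the 6 called genes the Hodgkin arrays too lay above all SU-DHL arrays, and for 2 Namalwa lay above all 10 other arrays. CFLAR, an inhibitor of caspase activation, differed by 1.21 and fell under the 2-fold minimum without SU-DHL6 replicate 1 (0.95), and of its 11 probe sets 2 were called and 9 lay between −0.33 and 0.21.

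Of 38 measured interferon-stimulated genes, 9 were called higher and 0 lower, beside 2.01% and 1.81% of all genes. Their median difference was 0.29, and 19 of the 38 lay above all SU-DHL arrays without overlap, beside 12.4% of all genes. MX1, a GTPase that blocks viral replication, stood at 9.19 and 8.92 in Namalwa, against 6.08 and 5.89 in SU-DHL4 and 6.30 and 6.25 in SU-DHL6 (2.93 ± 0.10, 7.6-fold, adjusted p = 2.25e-07), with Hodgkin arrays at 6.08 to 7.04. OAS2 and OAS1, which make the signal for RNA decay on sensing double-stranded RNA, differed by 2.19 ± 0.19 (adjusted p = 5.17e-05) and 1.66 ± 0.14 (adjusted p = 4.12e-05). ISG20, an RNA exonuclease, differed by 1.66 ± 0.19 (adjusted p = 0.000360). MX1, OAS2, OAS1, ISG20 and IFI44 lay above all 10 other arrays, whereas for ISG15, PLSCR1 and IFI44L at least 1 Hodgkin line was higher than Namalwa. For 3 of the 9 called genes the Hodgkin arrays too lay above all SU-DHL arrays.

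The values were uneven across the list. ISG15, a ubiquitin-like modifier, differed by 2.42 from SU-DHL6 and by 0.33 from SU-DHL4. IFI44, IFI44L and IRF1 differed from both lines by about the same amount, at 1.55 and 1.54, 1.72 and 1.45, and 1.01 and 1.01. Other genes of the group did not reach the minimum, among them IFIT1 (0.49), IFIT3 (0.48), IRF9 (0.77) and SAMD9 (0.84), and OAS3 (−0.07), OASL (0.08), IFI27 (−0.02), XAF1 (0.13), GBP1 (0.02) and HERC5 (−0.06) had adjusted p of 0.563 or more in limma. MX2, the nearest relative of MX1, stood 1.71 below SU-DHL6 and 0.38 above SU-DHL4. Without a single array the count of members called higher was 8 to 10.

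Interferon-stimulated genes are turned on through a promoter element that type I interferon signalling binds, here searched on both strands as GAAANNGAAA in the 300 bases from 250 before to 50 after each gene's start in RefSeq (GRCh38.p14). It was present in 6 of 8 called genes with a promoter window and in 15 of the 21 other members with one (71.4%), against 395 of 9563 measured genes (4.13%). Called and other members thus held it at about the same share. These promoter stretches of 4 called genes are shown because each lies wholly upstream of the start, and each is 60 bases written in the gene's direction, with the match in capitals, and ISG15 holds 2 overlapping matches.
IFI44L (chr1:78620350-78620409, plus strand, match beginning at −73 from the start): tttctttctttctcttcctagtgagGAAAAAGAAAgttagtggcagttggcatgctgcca
ISG15 (chr1:1013365-1013424, plus strand, second match beginning at −107 from the start): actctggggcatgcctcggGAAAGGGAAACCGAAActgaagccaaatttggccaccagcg
ISG20 (chr15:88638922-88638981, plus strand, match beginning at −69 from the start): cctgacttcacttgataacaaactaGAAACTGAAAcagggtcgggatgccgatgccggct
PLSCR1 (chr3:146544652-146544711, minus strand, match beginning at −79 from the start): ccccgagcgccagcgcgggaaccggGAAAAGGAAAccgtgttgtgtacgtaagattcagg
The matches of MX1 and IFI44 began at 11 and −18 from the start, so stretches around them would cross it, and are not printed.

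**Figure D3:**
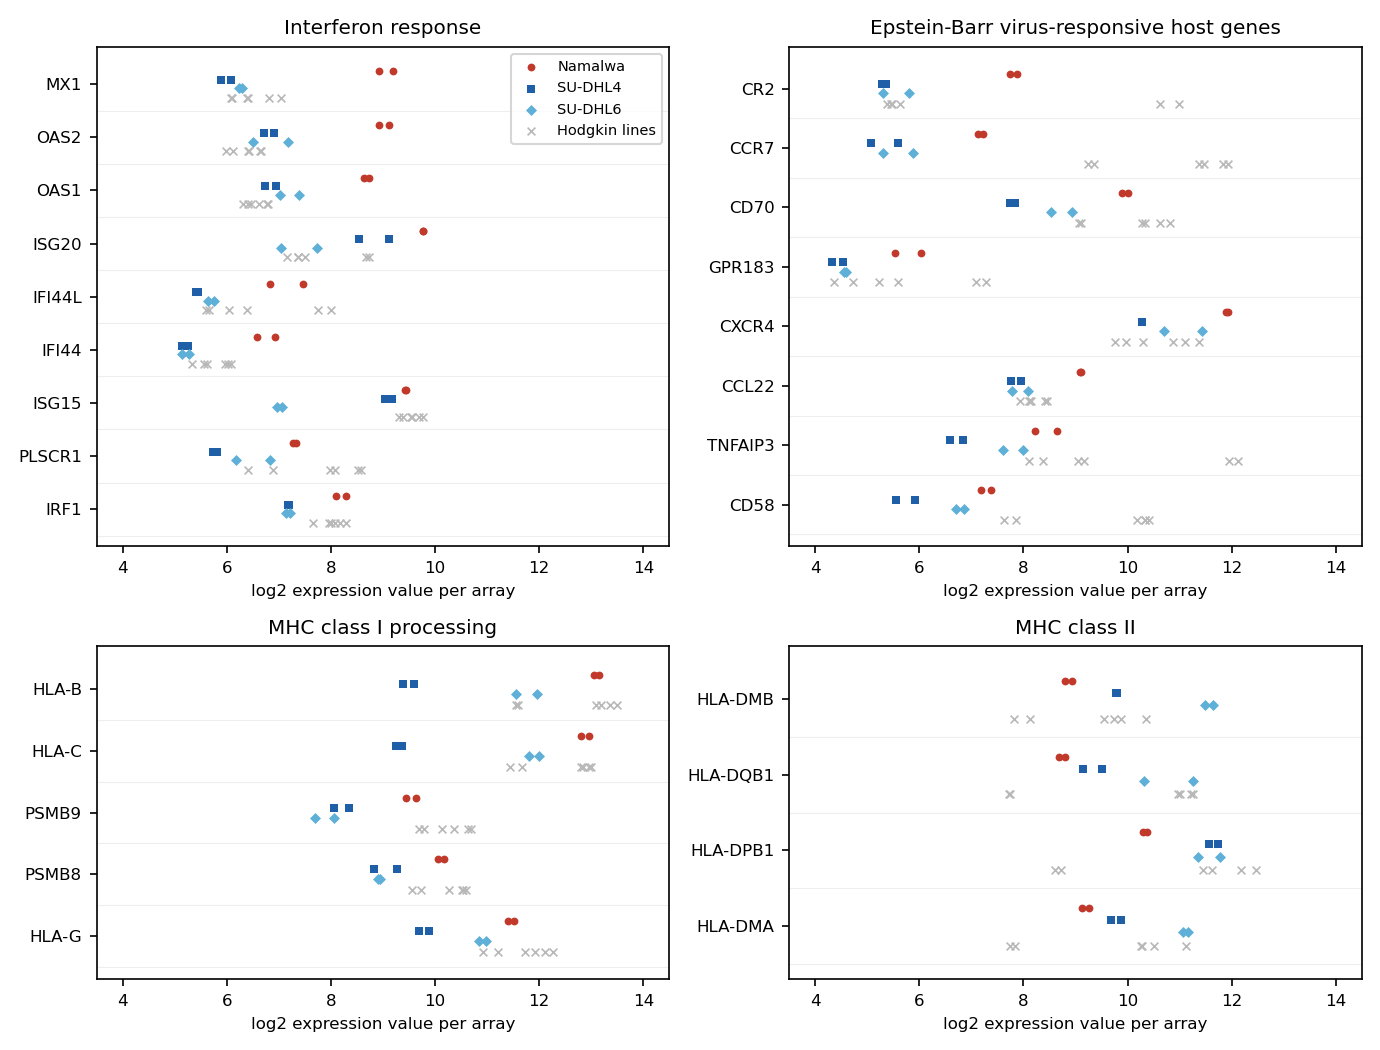
Log2 expression value on each array (horizontal axis) for the called members of 4 gene lists, in red for Namalwa, dark and light blue for SU-DHL4 and SU-DHL6, and grey crosses for the 6 Hodgkin arrays. Namalwa lies right of all blue points for interferon, Epstein-Barr virus-responsive and class I genes and left of them for class II genes, and the grey crosses lie with SU-DHL for OAS2 and OAS1 but beyond Namalwa for CCR7 and PSMB9.

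Several MHC class I genes, which present peptides from inside the cell, were higher in Namalwa, and some class II genes, which present peptides taken up from outside, were lower. Of 17 measured class I processing genes, 5 were called higher, beside 2.01% of all genes, and 0 lower, with a median of 0.55. HLA-B stood at 13.14 and 13.05 in Namalwa, against 9.59 and 9.38 in SU-DHL4 and 11.56 and 11.95 in SU-DHL6 (2.48 ± 0.12, adjusted p = 1.18e-06). HLA-C stood at 12.81 and 12.96, against 9.25 and 9.37 in SU-DHL4 and 11.80 to 12.0003 in SU-DHL6 (2.28 ± 0.10, adjusted p = 1.04e-06). The order for both was Namalwa above SU-DHL6 above SU-DHL4, and Hodgkin arrays reached the level of Namalwa, at 11.56 to 13.49 for HLA-B. Probes for HLA genes can share transcripts and can depend on the alleles of a line, so these values are uncertain as levels of single genes. PSMB9 and PSMB8, the interferon-inducible proteasome subunits, do not have that limit and differed by 1.49 ± 0.17 (adjusted p = 0.000320) and 1.14 ± 0.13 (adjusted p = 0.000311), with Hodgkin arrays also above all SU-DHL arrays for both. TAP1, the peptide transporter (0.99, adjusted p = 0.00118), lay just under the 2-fold minimum, and B2M, the invariant chain (0.55, adjusted p = 0.00208), further under it.

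Of 16 measured class II genes, 4 were called lower, beside 1.81% of all genes, and 0 higher, with a median of −0.29. HLA-DMB, a chain of the peptide-loading chaperone HLA-DM, stood at 8.79 and 8.93 in Namalwa, against 9.80 and 9.78 in SU-DHL4 and 11.49 and 11.64 in SU-DHL6 (−1.82 ± 0.14, adjusted p = 3.02e-05). Its partner HLA-DMA differed by −1.26 ± 0.15 (adjusted p = 0.000360), HLA-DQB1 by −1.31 ± 0.22 (adjusted p = 0.00322) and HLA-DPB1 by −1.27 ± 0.13 (adjusted p = 0.000175). By the brightest probe set only HLA-DPB1 was called against both lines, since HLA-DMB, HLA-DMA and HLA-DQB1 differed by −0.93, −0.59 and −0.58 from SU-DHL4. Of the 7 HLA-DQB1 probe sets 6 were called lower against the mean of both lines, and some lay further below SU-DHL4. One differed by −2.20 from SU-DHL4 and −2.46 from SU-DHL6, another by −1.75 and −2.62. The limit on HLA probes given above holds here too. CIITA, the master regulator of class II genes (0.05), HLA-DRA (−0.21) and CD74 (−0.15) did not pass. By the brightest probe set of each of the 4 called genes, L1236 lay below Namalwa and KM-H2 and L428 above it. By the HLA-DQB1 probe set that differed by −2.20 and −2.46, KM-H2 and L428 both averaged 4.39, below Namalwa at 5.04.

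Among genes of bone morphogenetic protein and transforming growth factor beta signalling, SMAD1 stood far from the rest. Of 34 measured, 3 were called higher and 2 lower, beside 2.01% and 1.81% of all genes, and the median was −0.02. BMP7, a ligand of the pathway, stood at 10.63 and 10.12 in Namalwa, against 7.74 and 8.35 in SU-DHL4 and 9.0 and 9.85 in SU-DHL6 (1.64 ± 0.24, adjusted p = 0.00138), with Hodgkin arrays at 6.33 to 6.49. SMAD4, the common partner of the receptor-activated SMADs, differed by 1.11 ± 0.22 (adjusted p = 0.00638), and fell just short without Namalwa replicate 2 (adjusted p = 0.0538) and without SU-DHL6 replicate 2 (0.99). SMAD5 (−0.17) and SMAD9 (−0.05), which share the role of SMAD1, and the inhibitors SMAD6 (−0.09) and SMAD7 (0.48) were not called. TGFBR2, the type II receptor of transforming growth factor beta (−1.10), and LTBP1, which anchors the latent ligand (−1.25), were lower, TGFBR2 by −2.04 against SU-DHL6 and −0.16 against SU-DHL4. ID3, a known target of SMAD1, was higher as given above, and ID1, another, averaged 5.8 in Namalwa against 5.2 in SU-DHL4 and 5.7 in SU-DHL6.

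PRKAR2B stood apart in the same way among 35 measured genes of cAMP and protein kinase A signalling. Of these, 2 were called higher and 2 lower, beside 2.01% and 1.81% of all genes, with a median of −0.05. The other regulatory subunits were not called: PRKAR1A differed by 0.70 (adjusted p = 0.0171), PRKAR1B by −0.18 and PRKAR2A by −0.73 (adjusted p = 0.00554), and the catalytic subunit PRKACA by −0.48 (adjusted p = 0.00321). PDE4B, which degrades cAMP, was 2.12-fold higher and fell under the minimum without Namalwa replicate 1 (0.88). CREM, a transcription factor that cAMP signalling controls, stood at 7.58 and 7.57 in Namalwa, against 8.98 to 9.44 on the SU-DHL arrays (−1.70 ± 0.10, adjusted p = 5.31e-06), and its Hodgkin arrays, at 7.53 to 8.14, also lay below SU-DHL. RGS2, a brake on G protein signalling, differed by −3.11 from SU-DHL6 and −0.15 from SU-DHL4, and its call was lost without either Namalwa array and without either SU-DHL4 array (adjusted p = 0.0749 to 0.255).

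Adhesion and homing genes split, with 5 of 36 called higher and 3 lower, beside 2.01% and 1.81% of all genes. CD9, CCR7, GPR183, CXCR4 and CD58 were higher, and 3 of these were called without Namalwa replicate 1. ITGAL, the alpha chain of the integrin LFA-1, stood at 6.53 and 6.69 in Namalwa, against 8.07 to 9.22 on the SU-DHL arrays (−2.08 ± 0.12, adjusted p = 4.38e-06), and ITGB7, a homing integrin for gut tissue, differed by −1.79 ± 0.11 (adjusted p = 7.41e-06). For ITGAL and ITGB7 the Hodgkin arrays lay with Namalwa, below all SU-DHL arrays. The third adhesion gene called lower overlapped the SU-DHL arrays. LGALS1, a galectin from the list of costimulation and the TNF family, had Hodgkin levels on the far side of SU-DHL. It stood at 6.83 and 6.45 in Namalwa, at 8.09 to 9.35 on the SU-DHL arrays and at 11.34 to 12.46 on the Hodgkin arrays (−1.94 ± 0.29, adjusted p = 0.00151). Among 44 cell cycle genes CCND3 alone was called. In other lists 2 of 34 JAK-STAT genes (JAK1 and SOCS1), 1 of 30 chromatin regulators (HDAC9) and 3 of 29 genes of apoptosis (BCL2A1, BIK and CFLAR) were called higher, beside 2.01% of all genes, and 0 lower. SOCS1, HDAC9 and BIK each lost the call without at least 1 array, and the apoptosis count was 7 without SU-DHL6 replicate 2. Among 42 lymphoid transcription factors 5 were higher (BACH2, MYB, ZEB2, MEF2C and IRF1) and 3 lower (TOX, HHEX and LMO2). Among 23 genes of costimulation and the TNF family 1 was higher and 3 lower. The shares over all genes were 2.01% higher and 1.81% lower.

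**Figure D4:**
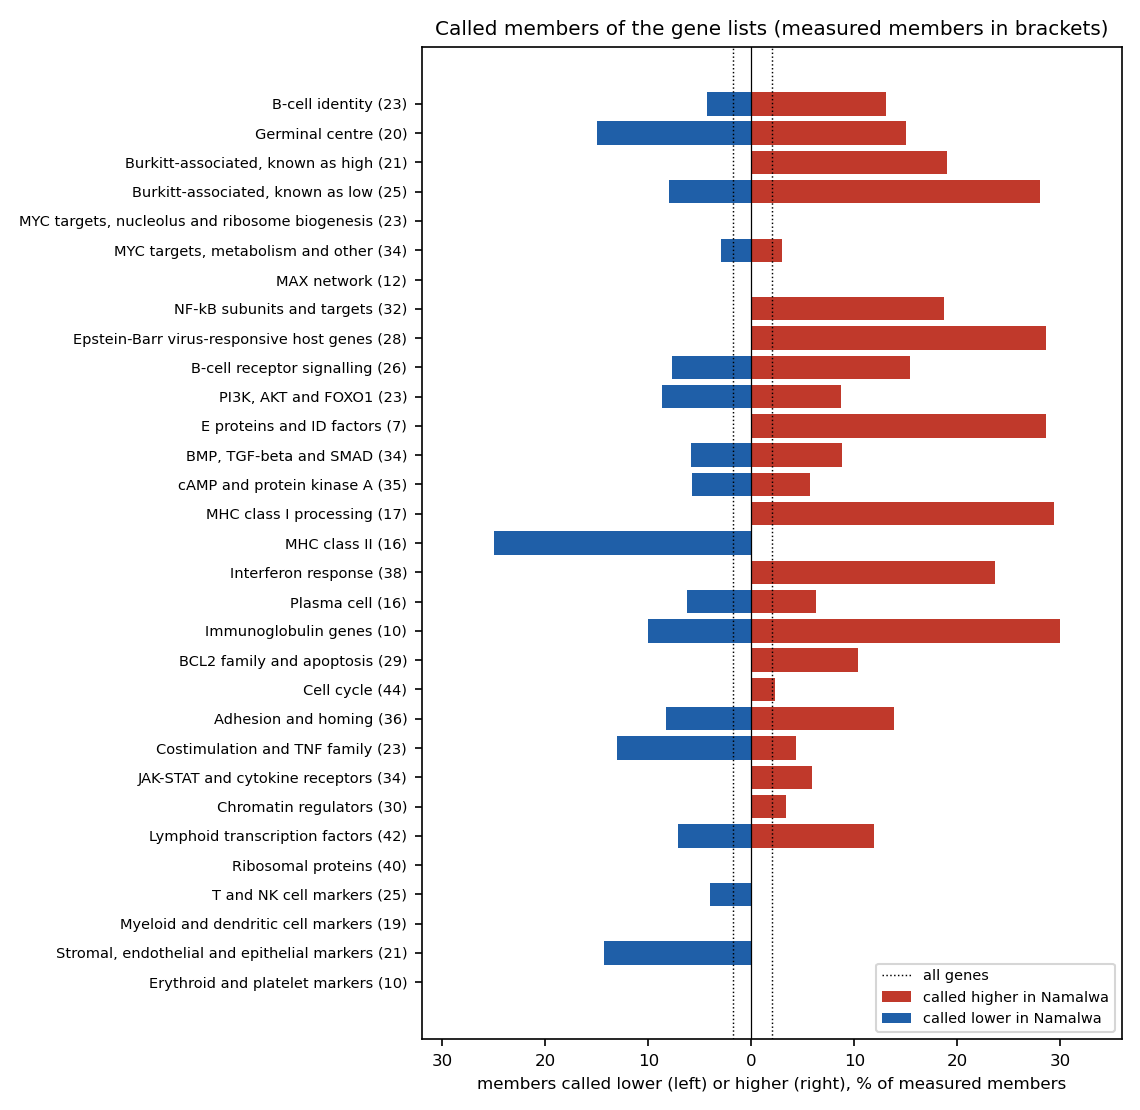
Percent of the measured members of each gene list called higher (red, to the right) or lower (blue, to the left) in Namalwa; dotted lines mark the share over all genes, 2.01% higher and 1.81% lower. Bars for interferon response, Epstein-Barr virus-responsive host genes and MHC class I processing run only to the right, the MHC class II bar runs only to the left, and MYC nucleolar targets and ribosomal proteins have no bar.

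Among markers of other cell types, none of 19 myeloid and dendritic cell markers and none of 10 erythroid and platelet markers was called, beside 2.01% of all genes called higher and 1.81% lower. The summed level of the myeloid list was 111 to 113 in Namalwa, against 110.2 to 112 in SU-DHL. Among 21 stromal, endothelial and epithelial markers 3 were called lower, beside 1.81% of all genes, and each followed a single SU-DHL line. VIM, an intermediate filament of mesenchymal and many blood cells, stood at 6.9 and 6.31 in Namalwa, at 6.61 and 6.75 in SU-DHL4 and at 10.96 and 11.70 in SU-DHL6. DCN, a matrix proteoglycan, stood at 8.06 and 7.94 in Namalwa, against 10.96 and 10.91 in SU-DHL4 and 8.02 and 8.17 in SU-DHL6, and THY1, a surface glycoprotein, was likewise high in SU-DHL4 alone. The summed level of this list was 126.5 to 127 in Namalwa, against 131 to 134 in SU-DHL, and its part in other differences was not tested. The 2 tubulin genes among the called genes with the largest differences set by 1 line split the same way, with TUBB2B at 5.38 and 5.32 in Namalwa, against 10.72 and 10.0 in SU-DHL6, and TUBB6 at 5.88 and 6.08 in Namalwa, against 10.57 and 10.61 in SU-DHL4. TUBB2B has a near-identical relative that its probes could share. ZMIZ1, a transcription coregulator, stood at 6.33 and 6.08 in Namalwa, against 10.20 and 10.21 in SU-DHL4 and 5.81 and 6.51 in SU-DHL6.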

How the data were processed

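The deposited expression table holds log2 values that the authors normalised by RMA, per the design text, and in R 2.10.1, per the submitters' processing notes; its settings are not stated in those sources. A deposited table of the authors' own comparison of Hodgkin and B-cell lines was not used. Of 22283 probe sets, 68 controls were left out. The platform annotation named a single gene for 19065 probe sets, left 2107 unnamed and gave 1043 more than 1 symbol. Of the named ones, 19053 matched a RefSeq gene table and 0 changed. A gene was read by its probe set with the highest mean over 12 arrays.

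In R 4.3.3 with limma 3.58.1, 1 coefficient per line was fitted to all 12 arrays with empirical Bayes moderation, two-sided, with Benjamini-Hochberg adjustment over 22215 probe sets. The samples, not counts of reads, limit the precision. Replicate numbers did not pair the arrays.

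The comparison, the markers and the 32 gene lists (708 genes measured of 818), written from general knowledge, were chosen with earlier results of these data known, and the promoter search and the windows of neighbouring genes after values had been seen. Named genes were the 15 highest and 15 lowest called genes without overlap, ranked by the smaller of the differences against the SU-DHL lines, up to 4 called members per list, a fixed set (2 genes of it and 1 list are not reported here) and the 5 largest differences set by 1 SU-DHL line. List members named without a call, and some called beyond the first 4, were chosen after their values were seen. Alternatives changed the arrays fitted, the unit of replication, dim probe sets, scaling, the prior, the size threshold, a replicate block, single arrays and the probe sets of a gene.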

Additional observations from a re-analysis of the deposited data

How the results depend on the processing

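Over line means in place of arrays, 7 probe sets and 5 genes were called, and of the 99 called genes that the naming rule chose 5 kept their call. With no minimum difference, 3372 probe sets and 2040 genes differed between Namalwa and the SU-DHL lines, 3087 probe sets between Namalwa and SU-DHL4, 3781 between Namalwa and SU-DHL6 and 3566 between SU-DHL4 and SU-DHL6. Signs turned against SU-DHL6 alone for IGHM (−0.37), ZMIZ1 (0.042) and PHGDH (−0.12), and against SU-DHL4 alone for TUBB2B (0.068), BANK1 (−0.21) and MEF2C (−1.31). Leaving out single arrays gave 742 to 836 probe sets and 444 to 498 genes between Namalwa and the SU-DHL lines, 886 to 989 probe sets against SU-DHL4, 1014 to 1444 against SU-DHL6 and 950 to 1437 between the SU-DHL lines, and 13 of the 99 calls were lost without at least 1 array. The replicate block gave 772 probe sets and 454 genes and changed none of the 99 calls. Replicate numbers share only a number: deviations of same-numbered arrays correlated at −0.44 to 0.30 over 15 pairs of lines, 4 of them above 0.1. Of the 99 calls, 11 were lost with the mean of a gene's probe sets, 8 with low values raised to a floor, 6 with only the 6 B-cell arrays fitted, and 0 with arrays centred on their median or quantile normalised. The cause of these changes was not tested. Dim probe sets limit fold changes downward.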

Other observations

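In 4 stretches of neighbouring genes, chosen after their values were seen because they held several calls, the values were as follows. On chromosome 14, 12 measured genes from RPL10L to DMAC2L all had lower values in Namalwa, with a median difference of −0.74, and 4 were called, namely DNAAF2 (−1.95), VCPKMT (−1.65), KLHDC2 (−1.13) and RPL36AL (−1.11). A second stretch of the same chromosome, from HIF1A to HSPA2, had 10 of 11 genes lower with a median of −0.67, among them SNAPC1 (−1.5), PPP2R5E (−1.34), ZBTB1 (−1.30) and SYNE2 (−1.13) as calls, while HSPA2 at its end was called higher (1.28). The medians were −0.59 and −0.40 against SU-DHL4 and −0.87 and −0.93 against SU-DHL6. On chromosome 6, the stretch from EXOC2 to FAM50B held 4 genes called lower, including the serpins SERPINB1 (−2.04) and SERPINB9 (−1.33), with a median of −0.36 over its 12 genes, and of 0.05 against SU-DHL4. On chromosome 22 the stretch around the immunoglobulin lambda locus held 5 genes called higher, with a median of 0.14 over its 17 genes. DNA copy number was not measured here.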
